A study of Mus musculus with 2 samples.

Results

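The atypical chemokine receptors Ackr1, Ackr2, Ackr3 and Ackr4 were measured in single endothelial cells of mouse lymph nodes. The 4 genes were taken by symbol from the gene list of both count matrices, which holds 32285 genes, and each was found in both. Atypical chemokine receptors bind chemokines as the classical receptors do but do not couple to the G proteins that drive cell migration. They recruit arrestins, take their ligands into the cell for breakdown or carry them across it, and so shape the chemokine fields that guide leukocytes through vessels and lymph nodes. Ackr1, the Duffy antigen receptor, binds inflammatory CC and CXC chemokines on venules. Ackr2 takes up inflammatory CC chemokines and is known from lymphatic endothelium. Ackr3 takes up Cxcl12 and adrenomedullin, and Ackr4 takes up the homing chemokines Ccl19, Ccl21 and Ccl25 and is known from the lymphatic lining of the lymph node's outer sinus.

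The study compared endothelial cells of WT mice with those of Xbp1-KO mice, in peripheral and in mesenteric lymph nodes. The Xbp1 protein switches on genes that enlarge the secretory apparatus when unfolded proteins build up. All mice received tamoxifen, WT mice included, and the Cre line, the sex and the number of mice per pool are not given in the labels. Each of 2 droplet libraries held 4 hashtag pools, namely WT peripheral, Xbp1-KO peripheral, WT mesenteric and Xbp1-KO mesenteric, so each group has n = 2 pools, 1 per library. The labels do not say how many mice a pool held. The p-values between genotypes and nodes measure the spread between the 2 pools of a group, which differ in library as well as in the mice they came from. The p-values between subsets of cells measure the spread of a difference over the pools that held both subsets.

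Library 1 held 7709 barcodes and 33024170 UMIs (unique molecules) with a median of 3655 per barcode, and library 2 held 2903 barcodes and 14744778 UMIs with a median of 4319. After hashtag calling and filtering, 9282 cells remained, 6654 of them from library 1, and 409 to 2294 per pool. Pecam1 and Cdh5, which mark endothelium, were detected in 90.95% and 90.71% of these cells, and Ptprc, the pan-leukocyte marker, in 0.46%. Xist was detected in 73.1% to 85.4% of the cells of the Xbp1-KO pools of library 1 and the WT pools of library 2, and in at most 1.77% of cells of the other pools. Xist thus went with Xbp1-KO in library 1 and with WT in library 2, so the 2 pools of a group differed in sex and came from different mice, and the part of sex in any genotype difference was not tested. The deleted gene itself was lower in the Xbp1-KO pool of all 4 matched pairs in high endothelial, capillary, arterial and lymphatic cells. In lymphatic cells Xbp1 stood at 121.5, 101.6, 110 and 56.92 UMIs per 1000000 (CPM) in the WT pools and at 47.31, 50.48, 54.34 and 51.74 CPM in the Xbp1-KO pools, so transcripts remained in every pool. edgeR called Xbp1 lower in floor-type cells (-1.30, SE 0.19, adjusted p = 0.00104) and Marco-type cells (-1.38, SE 0.23, adjusted p = 0.00294), 2 lymphatic clusters introduced below, each in 3 of 4 matched pairs. It was not called in all lymphatic-like cells (-1.05, SE 0.16, edgeR adjusted p = 0.123), capillary-like cells (-0.78, SE 0.16, edgeR adjusted p = 0.834), high endothelial-like cells (-0.56, SE 0.25) or arterial-like cells (-0.65, SE 0.28). With the library as a block, the lymphatic and capillary values were called (edgeR adjusted p = 0.000991 and 0.00141). These are 3′ counts, and the deleted part of Xbp1 is not given, so reads from outside that part would not show the deletion.

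Cells were clustered without the 4 receptors and Xbp1, and clusters were named from marker lists. The named classes were high endothelial-like cells (471, led by Madcam1, Hamp and Glycam1), the cells of the venules through which lymphocytes enter the node, and venous-like (120), capillary-like (3045), arterial-like (549) and lymphatic-like cells (3705). The lymphatic class held 5 clusters, called here by their leading genes: Gdf10/Dkk2 (1071 cells), Nts/Igfbp5 (523), Ccl20/Coch, which carried floor-type sinus markers (1249), Marco/Clec1b, which carried Marco-type sinus markers (576), and Ptx3/Mrc1, with Ptx3-type markers (286). No cluster met the markers of ceiling-type sinus cells, so the first 2 carry no subset name. Of the markers of other cells, summed per pool and class, those of T and NK cells reached at most 0.495 CPM and those of B cells at most 21.1 CPM in any class. In lymphatic-like cells fibroblastic markers stood at 19.7 to 84.1 CPM, mural markers at 75.5 to 237 CPM and platelet markers at 138 to 360 CPM, and erythroid markers ran from 3.02 to 2919 CPM in capillary-like cells. Their part in the results was not tested. A blood endothelial cluster of 1133 cells led by Scgb3a1 and Srarp was also left unnamed.

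The 4 genes lie on chromosomes 1 and 9 of the mouse genome (GRCm38, GENCODE M21). Ackr1 lies at chr1:173331886-173333750 on the minus strand with 2 exons, and Ackr3 at chr1:90203980-90216751 on the plus strand with 2 exons. Ackr2 lies at chr9:121898355-121911074 on the plus strand with 4 exons, and Ackr4 at chr9:104084157-104126933 on the minus strand with 3 exons. Ackr1 shares 493 bases with Cadm3 on the same strand, so reads in that stretch could not be assigned with certainty. Cadm3 stood at 47.9 CPM over 27 UMIs in venous-like cells and at 1.77 CPM in high endothelial-like cells. Ackr4 lies inside Acad11 on the opposite strand. Acad11 stood at 21.5 CPM in the Gdf10/Dkk2 cluster.

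Because the study deletes Xbp1, the 250 bases before each RefSeq start site (GRCm38.p6, all 4 genes matched) were searched on both strands for ACGTG, the core shared by sites of XBP1 and the CREB3L factors, which reads CACGT on the opposite strand, and for CCACG, a sequence of endoplasmic reticulum stress elements, which reads CGTGG there. ACGTG was found before Ackr4 only and is present before 16.6% of 27025 promoters, and CCACG was found before none of the 4 and is present before 28.2%. The stretch before Ackr4 is shown because it is the only one of the 4 windows with these letters. Given 5′ to 3′ on the strand of the gene, with the motif in capitals, it lies at chr9:104126841-104126865, and its motif starts 212 bases before the RefSeq start site. That start site lies inside the GENCODE bounds given above, so the stretch is within the GENCODE gene:
Ackr4 stretch: ctatttacctCACGTctgtgtgatc
A match in these letters is a description and not evidence of binding.

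The 4 receptors divided the vessel types between them. Ackr1 was highest in venous-like and high endothelial-like cells, Ackr2 and Ackr4 in lymphatic-like cells, and Ackr3 in both lymphatic-like and blood endothelial cells. High endothelial-like cells held 73.6% of all Ackr1 UMIs, and venous-like cells held 12.5%. Lymphatic-like cells held 91.4% of Ackr2 UMIs, 68.0% of Ackr3 UMIs and 98.9% of Ackr4 UMIs. For Ackr3, capillary-like cells held a further 15.7%. These shares follow the number and depth of the cells of each class as well as the level per cell.

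**Figure D1:**
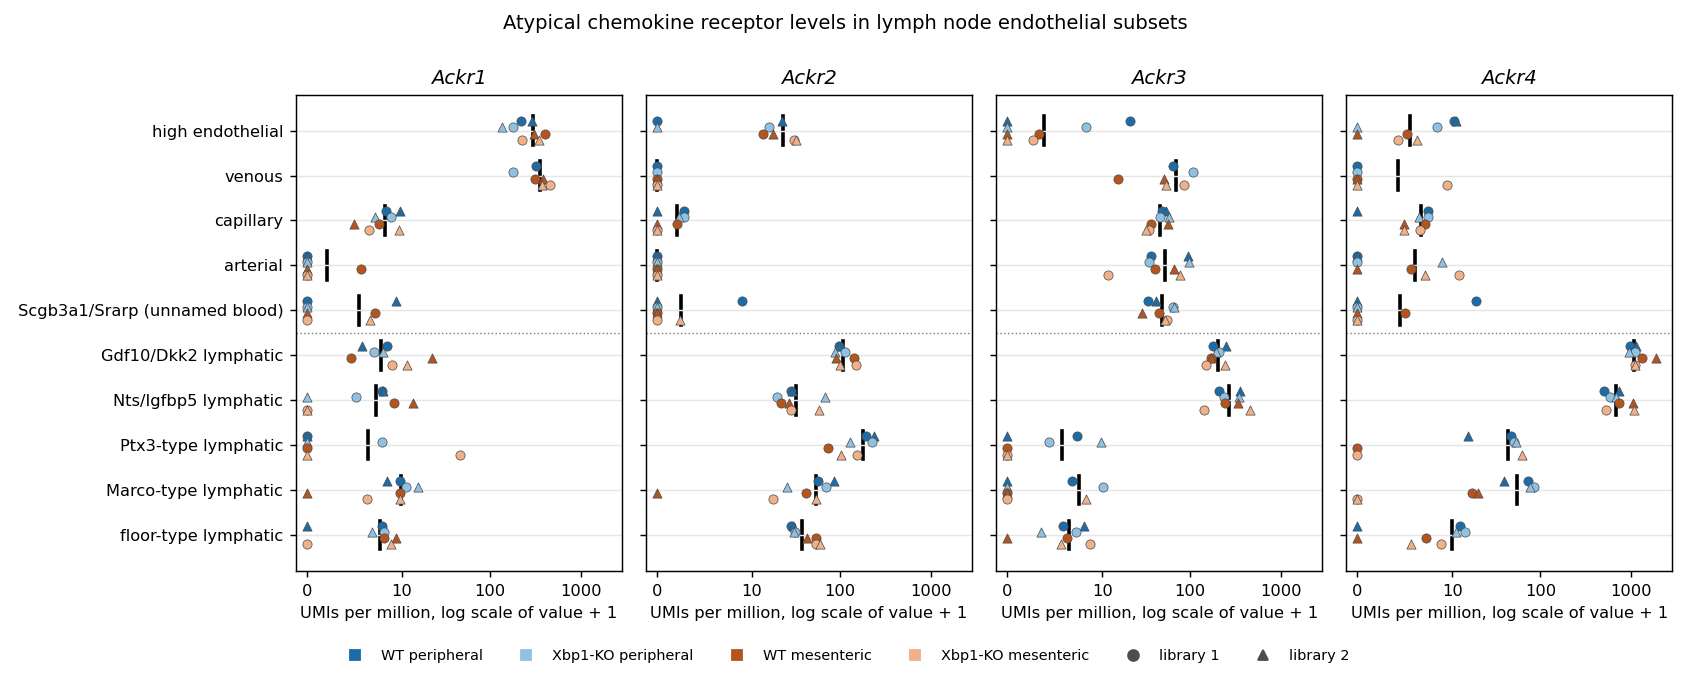
Level of each receptor (UMIs per 1000000 plus 1, log scale) in 10 endothelial subsets. Black lines give all cells of a subset summed, and points give single pools of at least 5 cells, with circles for library 1, triangles for library 2 and colours for the 4 groups. Ackr1 is high in 2 rows, venous-like and high endothelial-like, and Ackr4 in the 2 lymphatic rows Gdf10/Dkk2 and Nts/Igfbp5.

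Ackr1 marked the venous end of the blood vessels. Over all cells it stood at 353 CPM in venous-like cells (199 UMIs, 95% Poisson interval 306 to 406, counting error only) and at 297 CPM in high endothelial-like cells (1173 UMIs, 280 to 314). Capillary-like cells stood at 6.15 CPM, lymphatic-like cells at 5.93 CPM and arterial-like cells at 0.67 CPM, the last from 1 UMI. With cells thinned to 2000 UMIs, 39.8% of venous-like and 39.5% of high endothelial-like cells held an Ackr1 UMI, against 50% and 68.8% unthinned. Thinning here and below left out cells under that depth, 2 of 120 venous-like, 8 of 471 high endothelial-like, 190 of 549 arterial-like, 860 of 3045 capillary-like and 105 of 3705 lymphatic-like cells, so the thinned shares are of the deeper cells. In capillary-like and lymphatic-like cells the thinned shares were 1.19% and 1.06%. Among capillary-like clusters Ackr1 ran from 0 CPM in Aqp7/Fabp4 to 9.72 CPM in Apln/Prnd cells. No background level was measured, so its part in these low values was not tested.

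Venous-like cells stood above capillary-like cells in all 6 pools that held 5 or more cells of each. The fitted difference was 5.69 on the log2 scale (SE 0.29, edgeR's quasi-likelihood test with Benjamini-Hochberg adjustment over all genes, adjusted p = 6.9e-23), in a contrast that called 14.5% of tested genes. These 2 classes were set apart by other genes of the same cells. Between high endothelial-like and venous-like cells no difference in Ackr1 was called. The fitted value was -0.06 (SE 0.18, 95% interval -0.42 to 0.30, edgeR adjusted p = 0.851) in a contrast that called 31.4% of genes, and 5 of the 6 pools had the lower value in high endothelial-like cells. Within the venous-like class, the 60 of 120 cells with an Ackr1 UMI held Madcam1, an adhesion molecule of high endothelial venules, at 514 CPM, against 55.9 CPM in the other cells.

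In high endothelial-like cells, Ackr1 stood at 221.4 and 290.7 CPM in the WT peripheral pools and at 179.2 and 137.3 CPM in the Xbp1-KO peripheral pools. In mesenteric nodes it stood at 404.4 and 303.9 CPM in WT and at 224.6 and 347.8 CPM in Xbp1-KO. The Xbp1-KO pool was the lower one in 3 of 4 matched pairs, and the genotypes overlapped. The sums came from 9 to 46 cells per peripheral pool and 55 to 130 per mesenteric pool. Group means were 256 ± 49.0 CPM (SD, n = 2) for WT peripheral, 158 ± 29.6 for Xbp1-KO peripheral, 354 ± 71.1 for WT mesenteric and 286 ± 87.1 for Xbp1-KO mesenteric pools.

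The genotype difference of Ackr1 was not called in high endothelial-like cells, at -0.40 (SE 0.26) on the log2 scale. edgeR called 0% of 5901 genes in this comparison, while 216 had an unadjusted p under 0.05. Between nodes Ackr1 had its lower value in the peripheral pool of 4 of 4 matched pairs, with overlap between the groups, and the fitted difference of -0.55 (SE 0.26) did not pass the adjustment (unadjusted p = 0.0489, edgeR adjusted p = 0.665, 0.356% of genes called). That tissue value changed with the settings for cells and clusters. With a limit of 5% mitochondrial UMIs it was -1.70 (edgeR adjusted p = 0.000912) and at the finer clustering resolution of 2 it was -1.19 (edgeR adjusted p = 0.0171), and over all alternatives it ran from -1.70 to -0.41. Both of those alternatives counted an added cluster as high endothelial. At the finer resolution it held 253 cells, 162 of them peripheral, led by Dclk1, Lipg and Enpp2, with Ackr1 at 85.3 CPM beside 304.6 CPM in the Glycam1-led cluster. With the stricter mitochondrial limit it held 239 cells, 201 of them peripheral, with Ackr1 at 49.2 CPM beside 300.7 CPM. In the Glycam1-led cluster alone, peripheral against mesenteric cells gave 225.4 against 312.8 CPM at the finer resolution and 227.7 against 308.9 CPM with the stricter limit. That cluster was not fitted alone, so the part of the added cluster was not tested. The genotype effect was not shown to differ between tissues (difference -0.21, SE 0.52, 0% of genes called, and from -1.47 to 0.70 with either library left out). In venous-like cells of the mesenteric pools, fitted after the levels were seen, Ackr1 stood at 309.3 and 379.6 CPM in WT and at 459 and 373.1 CPM in Xbp1-KO. The genotypes overlapped, with a fitted difference of 0.31 (SE 0.34, edgeR adjusted p = 0.999, 0% of 1973 genes called, 47 with an unadjusted p under 0.05).

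**Figure D2:**
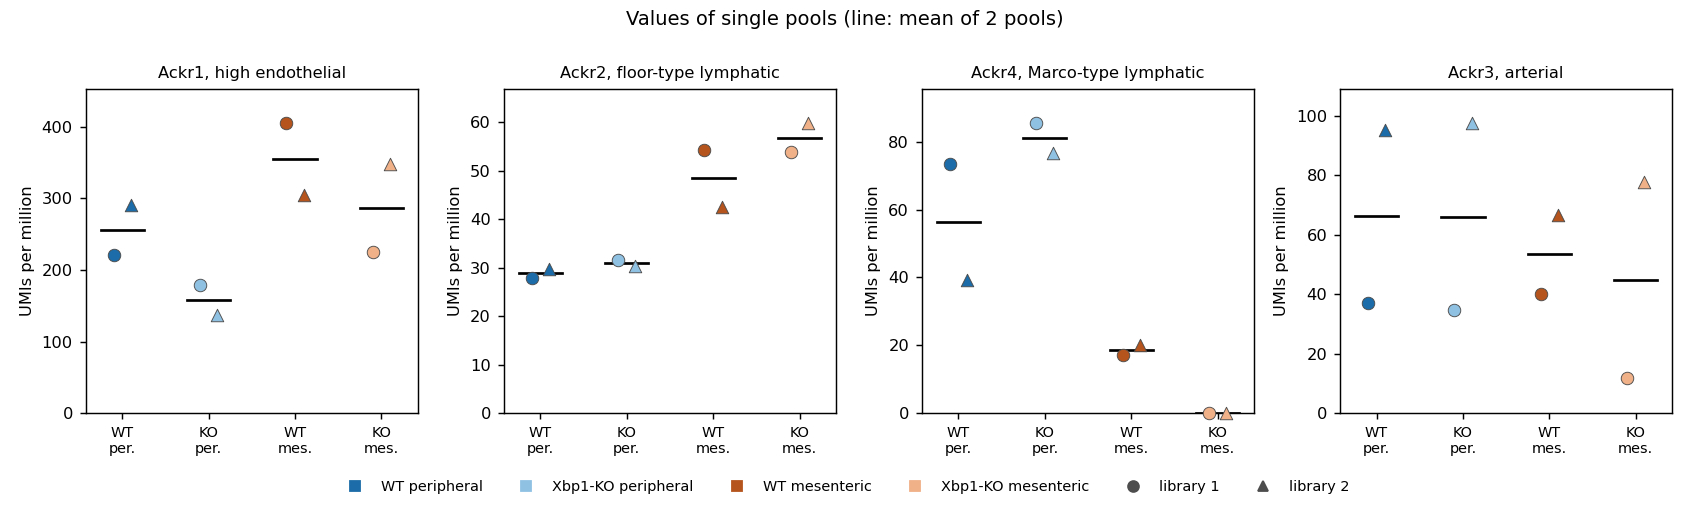
UMIs per 1000000 in each pool for Ackr1 in high endothelial-like, Ackr2 in floor-type, Ackr4 in Marco-type and Ackr3 in arterial-like cells, grouped by genotype and node, with a line at the mean of 2 pools. Ackr2 and Ackr4 separate the nodes without overlap, while Ackr3 in arterial-like cells is higher in every library 2 pool (66.7 to 97.5) than in every library 1 pool (11.9 to 40.2).

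Ackr2 was a gene of lymphatic endothelium with a graded level between its clusters. It was highest in the Ptx3/Mrc1 cluster at 179 CPM (295 UMIs, 95% Poisson interval 160 to 201), followed by the Gdf10/Dkk2 cluster at 107 CPM (621 UMIs, 98.5 to 115). The Marco/Clec1b cluster stood at 54.6 CPM, the floor-type cluster at 37.2 CPM and the Nts/Igfbp5 cluster at 32.5 CPM. No Ackr2 UMI was found in venous-like or arterial-like cells, where a count of 0 allows up to 6.54 and 2.46 CPM, and capillary-like cells stood at 0.67 CPM. In thinned cells a UMI was found in 27.3% of Ptx3/Mrc1, 17.0% of Gdf10/Dkk2, 9.30% of Marco/Clec1b, 6.27% of floor-type and 3.43% of Nts/Igfbp5 cells.

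Lymphatic-like cells stood above capillary-like cells by 6.40 on the log2 scale (SE 0.23, edgeR adjusted p = 1.2e-16), in all 8 pools and by up to 7.04 with a library left out, in a contrast that called 56.9% of genes. Contrasts between lymphatic clusters were added after the levels were seen. Ackr2 was higher in Gdf10/Dkk2 than in Nts/Igfbp5 cells by 1.58 (SE 0.20, edgeR adjusted p = 3.21e-08, 27.6% of genes called) and higher than in floor-type cells by 1.45 (SE 0.13, 43.6% of genes called). The first of these lost its call without library 1, at 0.87. Ptx3/Mrc1 cells stood above Gdf10/Dkk2 cells by 0.62 (SE 0.17, edgeR adjusted p = 0.00713, 26.5% of genes called) over 7 pools. That call was lost with DESeq2, at 0.45, and without either library, at 0.58 to 0.61.

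High endothelial-like cells carried a low level of Ackr2, at 22.8 CPM (90 UMIs, 95% Poisson interval 18.3 to 28.0), with a UMI in 13.4% of cells, or 4.32% after thinning. The 63 cells with an Ackr2 UMI held Prox1, the master regulator of lymphatic identity, at 1.43 CPM, against 4.31 CPM in the others. Their median depth was 11079 UMIs, against 7308 in the others. Prox1 was detected in 2.97% of high endothelial-like cells, so both Prox1 values rest on few UMIs. They were not compared by a test. In mesenteric pools Ackr2 stood at 13.6 and 17.6 CPM in WT and at 30.5 and 31.8 CPM in Xbp1-KO, from 55 to 130 cells each, without overlap. In peripheral pools, of 9 to 46 cells, it stood at 0 and 22.4 CPM in WT and at 15.998 and 0 CPM in Xbp1-KO. The mesenteric pools were not fitted alone, and the share of all genes that separate them by genotype was not counted. Over both nodes neither the genotype difference (0.75, SE 0.67) nor the tissue difference (-0.77, SE 0.66) was called. Without library 1 or 2 the first was -2.82 or 3.87, so its sign turned, and the second ran from -3.35 to -3.11.

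Ackr2 differed between nodes in the floor-type cells, which line the inner wall of the sinus. It stood at 27.96, 29.82, 31.67 and 30.33 CPM in the peripheral pools, in the order WT library 1, WT library 2, Xbp1-KO library 1 and Xbp1-KO library 2. The mesenteric pools stood at 54.28, 42.55, 53.75 and 59.72 CPM in the same order. All 4 peripheral pools were below all 4 mesenteric pools. The fitted difference was -1.07 (SE 0.20, edgeR adjusted p = 0.000701), a fitted 2.09-fold lower level in peripheral nodes. The fit rescales the pools to each other, and the CPM above, which are not rescaled, differ by less. The comparison called 13.5% of genes. The Ackr2 difference was called under the 9 of 9 alternatives that allow a test, at -1.07 to -0.95. With either library left out, which allows no test, it was -1.07 to -0.87. Summed over all lymphatic-like cells the values were 45.1 to 84.4 CPM, the nodes overlapped and no difference was called (0.13, SE 0.14, 4.96% of genes called). In the Ptx3/Mrc1 cluster the peripheral pools stood at 127.4 to 235.9 CPM and the mesenteric pools of 5 or more cells at 73.4 to 153.6 CPM, with no fit because 1 pool held 3 cells.

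No genotype difference in Ackr2 was called. Floor-type cells gave 0.08 (SE 0.20, 0.152% of genes called), with means of 28.9 ± 1.32 and 31.0 ± 0.942 CPM (SD, n = 2) in WT and Xbp1-KO peripheral pools and 48.4 ± 8.29 and 56.7 ± 4.22 CPM in mesenteric pools. All lymphatic-like cells gave 0.02 (SE 0.14). edgeR called 0% of 10678 genes by genotype in lymphatic-like cells, where 645 had an unadjusted p under 0.05. Over the high endothelial, capillary, arterial and lymphatic classes together DESeq2 called 14 genes by genotype.

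Over all cells summed, Ackr3 was the only one of the 4 above 40 CPM in venous-like, capillary-like and arterial-like cells alike. It was highest in the Nts/Igfbp5 cluster at 270 CPM (582 UMIs, 95% Poisson interval 249 to 293) and the Gdf10/Dkk2 cluster at 201 CPM (1169 UMIs, 190 to 213). Among blood endothelium it stood at 69.2 CPM in venous-like cells (39 UMIs), 52.6 CPM in arterial-like cells and 46.5 CPM in capillary-like cells, and at 49.2 CPM in the unnamed Scgb3a1/Srarp cluster. Pools with 5 or more venous-like cells gave 63.7, 15.5 and 50.6 CPM in WT, from 1 or 2 UMIs each, and 108, 85.0 and 54.1 CPM in Xbp1-KO, from 6 to 10 UMIs each. The Xbp1-KO pool was higher in 3 of 3 matched pairs, with overlap between the genotypes and no fit over all pools. Ackr3 was low in the other 3 lymphatic clusters, at 5.12 CPM in Marco/Clec1b, 3.75 CPM in floor-type and 3.04 CPM in Ptx3/Mrc1 cells, and in high endothelial-like cells, at 1.52 CPM from 6 UMIs. After thinning, a UMI was found in 30.7% of Nts/Igfbp5, 25.2% of Gdf10/Dkk2, 9.47% of arterial-like and 7.73% of capillary-like cells.

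Lymphatic clusters split into a pair with much Ackr3 and the other 3 with little. Gdf10/Dkk2 cells stood above floor-type cells by 5.60 (SE 0.17) and Ptx3/Mrc1 cells below Gdf10/Dkk2 cells by -5.98 (SE 0.30), both called by edgeR. Gdf10/Dkk2 cells were below Nts/Igfbp5 cells by -0.63 (SE 0.11, edgeR adjusted p = 2.01e-05). Lymphatic-like against capillary-like cells gave 0.85 (SE 0.12, edgeR adjusted p = 1.67e-06), higher in 8 of 8 pools. With all listed chemokine genes also left out of the clustering this was 0.27 (edgeR adjusted p = 0.0583) and no longer called.

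Venous-like against capillary-like cells gave 0.64 (SE 0.35, edgeR adjusted p = 0.267) and arterial-like against capillary-like cells 0.21 (SE 0.21, edgeR adjusted p = 0.571, 22.4% of genes called), and neither was called. The sign of the latter changed between alternatives. High endothelial-like cells had less Ackr3 than capillary-like cells in 8 of 8 pools, without overlap, a contrast that was not fitted.

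The libraries stood apart in Ackr3 in some classes. Arterial-like cells gave 37.01, 34.69, 40.23 and 11.88 CPM in library 1, in the order WT peripheral, Xbp1-KO peripheral, WT mesenteric and Xbp1-KO mesenteric, and 95.44, 97.52, 66.7 and 77.7 CPM in library 2. Every library 2 pool was above every library 1 pool. The same held for lymphatic-like cells, at 42.8 to 83.0 against 93.4 to 156 CPM, and for Nts/Igfbp5 cells, at 141 to 242 against 333 to 450 CPM. In Gdf10/Dkk2 cells the libraries overlapped, at 149.9 to 209.9 against 169.7 to 247.1 CPM, and so they did in capillary-like and venous-like cells. Arterial-like cells differed by 0.01 (SE 0.46) between genotypes and 0.23 (SE 0.49) between nodes. edgeR called 0% of 3661 genes by genotype in this class, with 99 at an unadjusted p under 0.05, and 0.0819% of them by node.

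Capillary-like cells gave steadier values. Ackr3 stood at 48.25, 53.86, 46.06 and 58.2 CPM in peripheral pools, in the order WT library 1 and 2 and Xbp1-KO library 1 and 2, and at 36.8, 57.35, 34.43 and 32.1 CPM in mesenteric pools. Genotypes and nodes overlapped. The node difference was 0.42 (SE 0.20, edgeR adjusted p = 0.555, 1.54% of genes called) and the genotype difference -0.15 (SE 0.20), where edgeR called 0% of 8707 genes and 222 had an unadjusted p under 0.05. In lymphatic-like cells the genotype difference was -0.41 (SE 0.26, edgeR adjusted p = 0.835) and the node difference 0.19 (SE 0.26), and neither was called.

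Ackr4 had the largest share of its UMIs in lymphatic endothelium of the 4 receptors. It stood at 1080 CPM in the Gdf10/Dkk2 cluster (6285 UMIs, 95% Poisson interval 1054 to 1107) and at 676 CPM in the Nts/Igfbp5 cluster (1454 UMIs, 641 to 711). These 2 clusters held 77.0% and 17.8% of all Ackr4 UMIs. The Marco/Clec1b cluster stood at 54.9 CPM, Ptx3/Mrc1 at 43.2 CPM and floor-type cells at 9.95 CPM. Blood endothelium was lower, at 4.02 CPM in capillary-like, 3.33 CPM in arterial-like, 2.78 CPM in high endothelial-like and 1.77 CPM in venous-like cells. A UMI was found in 90.5% of Gdf10/Dkk2 cells, or 76.7% after thinning, and in 66.7% of Nts/Igfbp5 cells, or 54.1% after thinning.

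Lymphatic-like cells stood above capillary-like cells by 6.53 (SE 0.18, edgeR adjusted p = 1.86e-18) in all 8 pools, and by 7.498 without library 1. Gdf10/Dkk2 cells were above Nts/Igfbp5 cells by 0.59 (SE 0.10, edgeR adjusted p = 4.89e-06), a call lost without library 1 at 0.44. They were above floor-type cells by 6.76 (SE 0.17), or 7.53 without library 1, and Ptx3/Mrc1 cells were below them by -4.72 (SE 0.20), both called by edgeR. Within the Gdf10/Dkk2 cluster Ackr3 and Ackr4 were found together in 214 of 1057 thinned cells, where the product of their shares gives 204, and Ackr2 and Ackr4 in 149, where it gives 138.

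In all lymphatic-like cells Ackr4 stood at 362.9, 606, 400.4 and 763.7 CPM in the WT pools, in the order peripheral library 1 and 2 and mesenteric library 1 and 2. The Xbp1-KO pools stood at 397.6, 418.7, 234.7 and 330.7 CPM in the same order. The Xbp1-KO pool was the lower one in 3 of 4 matched pairs, peripheral library 1 being the exception, and the genotypes overlapped. The fitted difference was -0.65 (SE 0.20, unadjusted p = 0.00631, edgeR adjusted p = 0.579) and was not called. With the library as a block, which pairs the pools, it was -0.62 (SE 0.11, edgeR adjusted p = 0.00767) and was called, in a fit that called 0.824% of genes. Without a filter on low counts it was -0.64 (edgeR adjusted p = 0.00146) and also called. Library 1 alone gave -0.37 and library 2 alone -0.88, both without a test.

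The makeup of the lymphatic class also differed between pools. The Gdf10/Dkk2 and Nts/Igfbp5 clusters together made up 45.1% and 58.8% of lymphatic-like cells in WT peripheral pools and 40.4% and 47.3% in Xbp1-KO peripheral pools. In mesenteric nodes they made up 43.1% and 57.8% in WT and 32.7% and 29.7% in Xbp1-KO. The share was lower in the Xbp1-KO pool of 4 of 4 matched pairs, including the peripheral library 1 pair in which Ackr4 was higher, and its part in the class value was not tested. Inside the Gdf10/Dkk2 cluster the genotype difference was -0.29 (SE 0.14, edgeR adjusted p = 0.964, 0.0128% of genes called), and -0.49 to -0.09 with either library left out. Inside the Nts/Igfbp5 cluster it was -0.05 (SE 0.22). These values were not tested against that of the class.

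**Figure D3:**
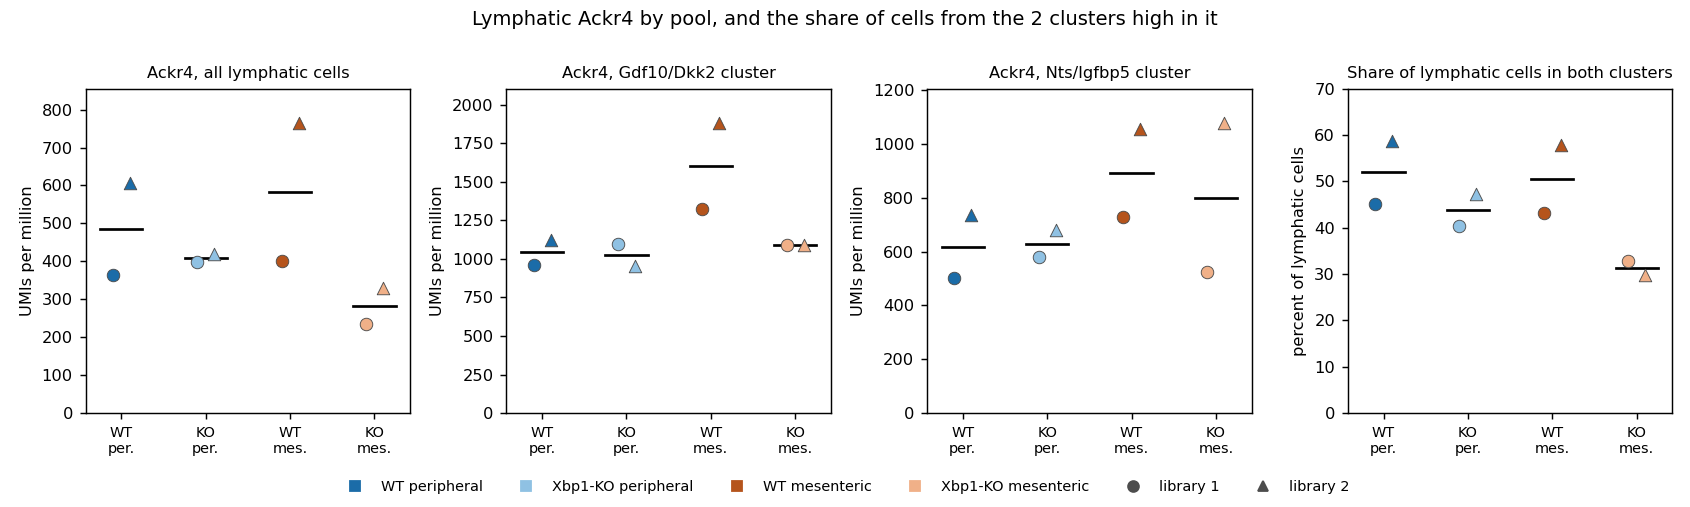
Ackr4 (UMIs per 1000000) per pool in all lymphatic-like cells and in the Gdf10/Dkk2 and Nts/Igfbp5 clusters, beside the percent of lymphatic-like cells that these 2 clusters make up. In Xbp1-KO pools the class value and the percent are lower in 3 of 4 and 4 of 4 matched pairs. Inside the clusters Ackr4 is lower in 3 of 4 pairs for Gdf10/Dkk2 and 2 of 4 for Nts/Igfbp5, and Ackr4 overlaps between genotypes in all 3 panels.

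Gdf10/Dkk2 cells gave Ackr4 at 963.1, 1125, 1095 and 951.5 CPM in peripheral pools and 1323, 1878, 1087 and 1089 CPM in mesenteric pools, in the order WT library 1 and 2 and Xbp1-KO library 1 and 2. The value of 1878 CPM came from 12 cells. Nodes overlapped. Peripheral pools differed by -0.39 (SE 0.14, edgeR adjusted p = 0.169, 1.57% of genes called), and Nts/Igfbp5 cells by -0.43 (SE 0.23, edgeR adjusted p = 0.742, 0.656% of genes called), and neither was called. In all lymphatic-like cells the node difference was 0.05 (SE 0.20). The genotype effect was not shown to differ between nodes (difference 0.77, SE 0.41, 0% of genes called).

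Ackr4 differed between nodes in the Marco/Clec1b cells. In floor-type cells, with 69 Ackr4 UMIs in all, the peripheral pool was also higher in 3 of 4 matched pairs and lower in none, with overlap. The peripheral Marco/Clec1b pools stood at 73.5, 39.36, 85.41 and 76.76 CPM, in the order WT library 1 and 2 and Xbp1-KO library 1 and 2. The mesenteric WT pools stood at 17.21 CPM from 9 UMIs and 20.21 CPM from 1 UMI in 6 cells, and both Xbp1-KO pools, of 44 and 39 cells, were at 0. All 4 peripheral pools were above all 4 mesenteric pools, and edgeR called the difference (adjusted p = 1.2e-07, 5.38% of genes called). It was also called under the 10 of 10 alternatives that allow a test. In WT pools together the level was 67.6 against 17.5 CPM, 3.87-fold higher in peripheral nodes. In Xbp1-KO pools it was at least 16.8-fold higher, at 84.2 CPM over 123 UMIs against 0, with the floor of 3 counts taken over the group. The fitted value of 5.06 (SE 0.58) on the log2 scale rests in part on pools at 0 and depends on the prior count. It ran from 1.93 in WT pools alone to 5.47 over those alternatives, with 2.27 at the coarser resolution of 0.5.

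Few cells carried this difference. An Ackr4 UMI was found in 72 of 576 Marco/Clec1b cells, and the 15 cells with the most held at least as many of the 193 UMIs as the other cells together. All 10 of the 10 leading genes of the Gdf10/Dkk2 cluster were higher in the Marco/Clec1b cells with an Ackr4 UMI than in the others, summing to 5058 against 2215 CPM. Gdf10 itself stood at 576 against 166 CPM, and Marco, a scavenger receptor, at 1208 against 3564 CPM. The part of Gdf10/Dkk2-like cells or droplets in the node difference was not tested. The genotype difference in Marco/Clec1b cells was -2.80 (SE 0.85, edgeR adjusted p = 0.384, 0.184% of genes called) and not called. The means ran the other way, at 40.5 CPM in Xbp1-KO and 37.6 CPM in WT pools, with both Xbp1-KO mesenteric pools at 0. The difference of that effect between nodes (6.27, SE 1.63) was not called either, where edgeR called 0.0167% of genes.

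**Figure D4:**
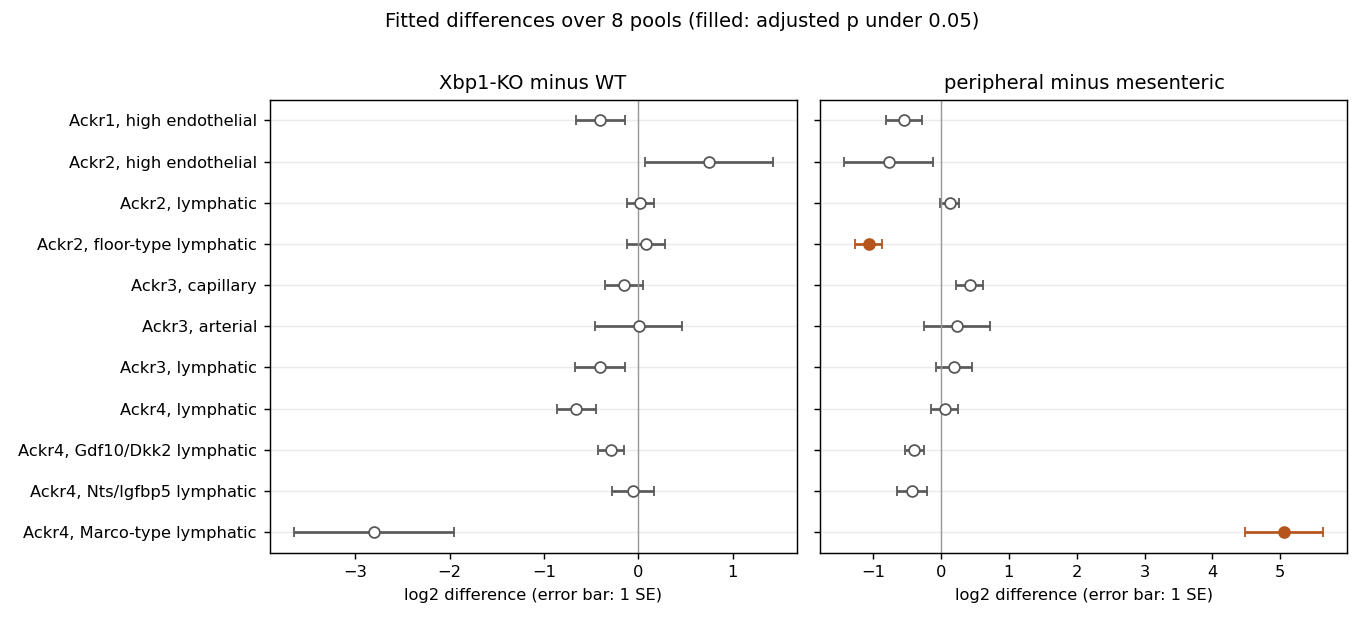
Fitted log2 differences with 1 SE for chosen pairs of a receptor and a class or cluster. They are given for Xbp1-KO minus WT and for peripheral minus mesenteric nodes, and other fitted pairs are not shown. Filled points passed an edgeR adjusted p of 0.05. Of the pairs shown, only Ackr2 in floor-type and Ackr4 in Marco-type cells did, both between nodes.

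The ligands of these receptors were laid out in a pattern of their own. Ccl21a, the homing chemokine taken up by Ackr4, stood at 18760 CPM in high endothelial-like and 1579 CPM in venous-like cells. Among lymphatic clusters it stood at 674 CPM in Nts/Igfbp5 and 293 CPM in Ptx3/Mrc1 cells, but at 26.6 CPM in the Gdf10/Dkk2 cells where Ackr4 was highest and at 17.6 CPM in floor-type cells. Its near-identical copies share reads, so its values are uncertain. Among the 13 endothelial clusters Ccl20 and Ccl19 were highest in floor-type cells, at 754 and 59.1 CPM. Cxcl12, the ligand of Ackr3 and Cxcr4, stood at 2903 CPM in arterial-like cells and 2398 to 3214 CPM in 3 of the 4 capillary-like clusters, and at 6.69 to 51.6 CPM in lymphatic clusters. Cxcr4, its signalling receptor, was highest in Apln/Prnd capillary-like cells at 95.4 CPM and stood at 0 to 3.46 CPM in lymphatic clusters. Of 18 classical chemokine receptors it had the most UMIs, 612, followed by Ccr10 with 62 and Cx3cr1 with 39, and 5 had none.

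Several of these genes were called between classes or clusters, in contrasts that called many genes of any kind. Ccl21a was lower in Gdf10/Dkk2 than in Nts/Igfbp5 cells by -4.33 (27.6% of genes called), and Ccl20 lower in Gdf10/Dkk2 than in floor-type cells by -8.29 (43.6% called). Listed chemokine genes were left in the clustering and Ccl20 is a leading gene of the floor-type cluster, so these values are descriptions. Gpr182, an endothelial receptor that also scavenges chemokines, was higher in Gdf10/Dkk2 than in Nts/Igfbp5 cells by 1.26 and lower than in floor-type cells by -0.81. It was higher in lymphatic-like than in capillary-like cells by 3.20, with 746 CPM in Marco/Clec1b and 666 CPM in Ptx3/Mrc1 cells, and higher in high endothelial-like than in venous-like cells by 1.43 (31.4% called). The arrestins Arrb1 and Arrb2, which atypical receptors recruit, were higher in lymphatic-like than in capillary-like cells by 2.07 and 2.16, where 4 of 5 tested arrestins and receptor kinases were called, 3 of them higher, beside 56.9% of all genes.

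**Figure D5:**
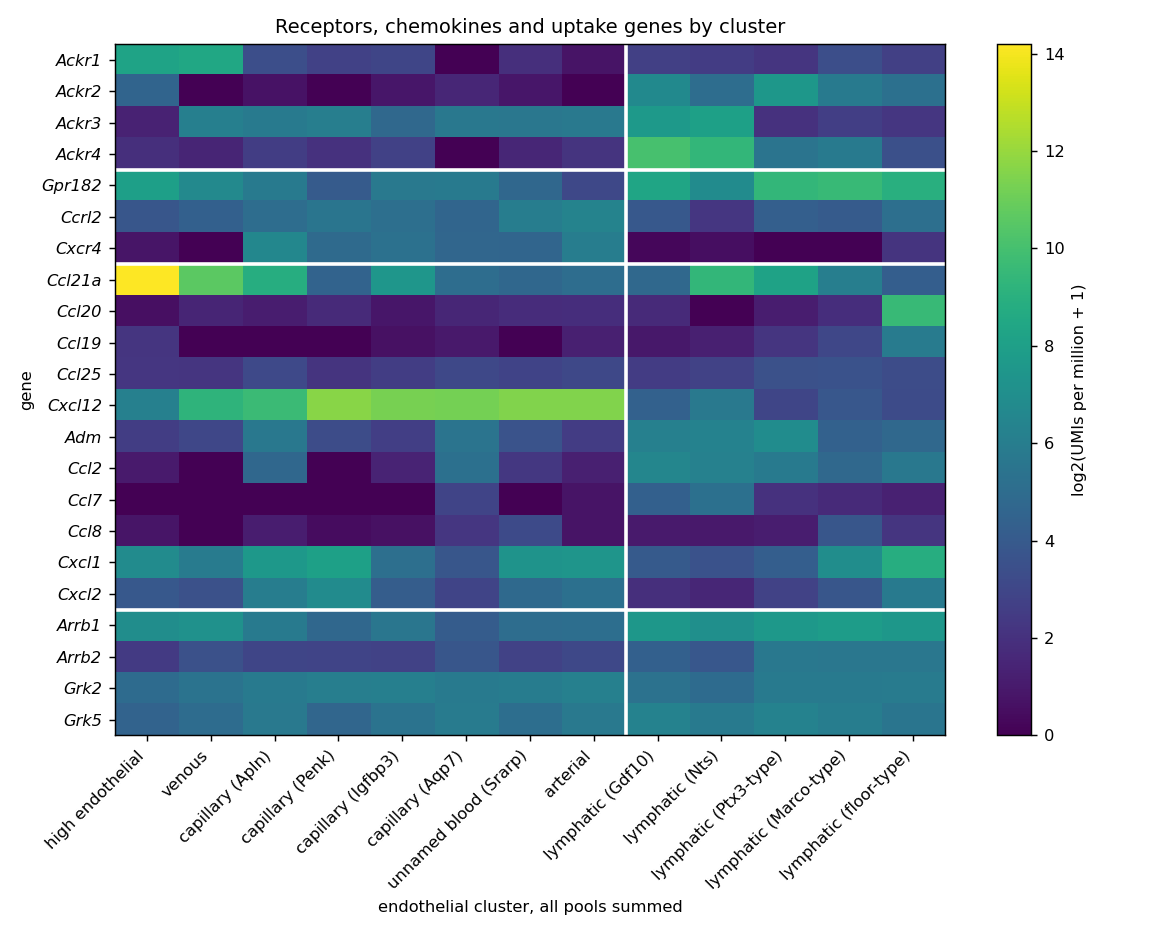
Heat map of the level, as log2 of UMIs per 1000000 plus 1, of the 4 receptors, other receptors, ligands, arrestins and kinases across 13 endothelial clusters, all cells of a cluster summed. Ackr4 is brightest in Gdf10/Dkk2 and Nts/Igfbp5 cells, and Ccl21a in high endothelial-like cells.

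No gene of these lists was called between genotypes in the high endothelial, capillary, arterial or lymphatic class, where edgeR called 0% of all genes. The nearest was Cxcl1, a neutrophil chemokine bound by Ackr1, in capillary-like cells, at 1.36 higher in Xbp1-KO (SE 0.21, edgeR adjusted p = 0.118), which was called with the library as a block, in a fit that called 0.241% of genes. Between nodes more were called. Cxcl12 was higher in peripheral high endothelial-like cells by 1.63 (SE 0.29), and Cxcl1 and Cxcl2 in peripheral capillary-like cells by 1.68 (SE 0.21) and 2.03 (SE 0.39). In peripheral lymphatic-like cells Ccl20, Ccl21a and Cxcl12 were lower by -1.13, -1.81 and -1.36. In floor-type cells Ccl20, Ccl2 and Cxcl2 were lower in peripheral nodes by -1.09, -0.98 and -0.80, the same cells and direction as Ackr2. In floor-type cells, where 693 of all 8544 genes tested were called lower in peripheral nodes, the ligand lists gave 1 of 1 tested called lower for Ackr2 (Ccl2), 1 of 3 for Ackr4 (Ccl20), 1 of 1 for Ackr3 (Adm) and 2 of 3 for Ackr1 (Cxcl2 and Ccl2), and none called higher. Ccl2 stands in 2 of these lists.

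Across the 13 endothelial clusters, with levels as log2 of CPM plus 10 and 10133 genes of at least 200 UMIs, the genes whose pattern was most like each receptor were the following by Pearson's r. Among the closest to Ackr1 were Tagln (0.93), Cysltr1 (0.89) and Rpl31 (0.88), and Selp, a venular adhesion molecule, at 0.87. Ackr2 was closest to Sh3gl3, Lck and Frmd6 (each 0.96). Ackr3 was closest to Sbds (0.93), Arl3 (0.91) and Slc25a4 (0.90). Ackr4 was closest to Ttc9 (0.99), Hspa12a (0.98) and Ccdc141 (0.98). The clusters share libraries and were drawn from the same genes, so these are descriptions.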

How the data were processed

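The authors deposited gene and hashtag UMI counts for 2 10x libraries. Per the file headers the matrices came from cellranger 6.0.1, while the submitters' processing notes name Cell Ranger 6.1 and mm10, and the labels name both a version 2 kit and 3' v3 chemistry. The labels' protocols describe depletion of CD45+ cells and sorting of endothelial cells. Pools were called with HTODemux (Seurat 5.3.0), which gave 1 tag to 6786 and 2690 barcodes and several to 685 and 130. Scrublet removed a further 59 and 3 doublets, and it marked 25% and 1.54% of barcodes with several tags. The libraries shared 3 barcodes. Cells had at least 500 genes and at most 10% mitochondrial UMIs. Clusters used 1997 variable genes, 30 components, 15 neighbours and Leiden resolution 1 (scanpy 1.11.5).

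Counts were summed per pool and class (at least 5 cells) and tested with edgeR 4.0.16 (TMM, filterByExpr, quasi-likelihood, Benjamini-Hochberg over all genes, R 4.3.3), on the 4 groups without a block, or, between subsets, with the pool as block. Subset contrasts compare cells that were clustered without the 4 receptors and Xbp1. Listed chemokine genes were left in, and without them 1976 variable genes remained. On simulated data most 4-fold changes were recovered in the high endothelial, capillary and lymphatic classes, but only part of the 2-fold changes, with the smallest share in the high endothelial class, and a few genes were called falsely. Alternatives were the library as block, DESeq2 1.42.0, its size factors, no low-count filter, each library left out, a hashtag ratio rule, 5% mitochondrial UMIs, resolutions 0.5 and 2, chemokine genes left out of clustering, WT pools alone and thinned sums. Pools of 1 library share a 10x run by label. Their deviations from the group means correlated at -0.05 to 0.31 over the classes.

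Members, lists and tests were chosen with earlier results of these data known, and fits within single lymphatic clusters, 3 contrasts between them and the mesenteric venous fit were added after the levels were seen. Named genes were the 4 receptors in every class, members of lists of their ligands, other chemokine receptors, arrestins and receptor kinases, and the genes most like each receptor. Ccl21a and Ccl19 stand on 2 identifiers each and the first was used. Cxcl11 was not used here. 1 gene like Ackr1 is not reported here.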

Additional observations from a re-analysis of the deposited data

Results flagged for a closer look

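Over the 8 pools, the WT mesenteric pool of library 2 stood apart in Ackr4 of the Gdf10/Dkk2 cells, at 1880 CPM from 166 UMIs in 12 cells, while the others ran from 951 to 1320 CPM. It was 1 of 21 sets of pools tested for a lone value, and chance flags about 1 in 20.

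In the Marco/Clec1b cells the Xbp1-KO pools had more Ackr4 than WT in peripheral nodes, by a mean of 24.7 CPM (11.9 and 37.4 in the 2 libraries), and less in mesenteric nodes, by -18.7 CPM (-20.2 and -17.2). The direction differed in both libraries. The fit of that difference gave 6.27 (SE 1.63, edgeR adjusted p = 0.434) and was not called, and it rests on Xbp1-KO mesenteric pools at 0.

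Receptor UMIs also appeared in clusters that no comparison used. Ackr3 stood at 122 CPM in the fibroblastic Dcn/Acta2 cluster, where the 3 cells with the most, of 122, held at least as many of its 63 UMIs as the other cells together. In the dividing Ube2c/Cenpf cluster Ackr2 stood at 73 CPM, Ackr3 at 151 CPM and Ackr4 at 63 CPM. In the B-cell cluster Igkc/Ly6d, Ackr1 stood at 124 CPM, Ackr2 at 27.6 CPM and Ackr3 at 23 CPM. Its 12 of 42 cells with an Ackr1 UMI held Glycam1 at 85268 CPM against 1202 in the others, and Igkc at 1362 against 27456 CPM.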

How the results depend on the processing

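The called node differences of Ackr2 in floor-type and Ackr4 in Marco-type cells, and the differences of Ackr1 between venous-like and capillary-like and of Ackr2 and Ackr4 between lymphatic-like and capillary-like cells, kept their direction under every alternative run and their call under every one that allows a test, which leaving out a library does not for the node differences. Calls gained were Ackr1 between nodes in high endothelial-like cells (5% mitochondrial UMIs -1.70, resolution 2 -1.19) and Ackr4 between genotypes in lymphatic-like cells (library block -0.62, no low-count filter -0.64). Calls lost were Ackr3 in lymphatic-like against capillary-like cells (chemokine genes left out 0.27) and Ackr2 in Ptx3/Mrc1 against Gdf10/Dkk2 cells (DESeq2 0.45, and without either library), and, without library 1, Ackr4 and Ackr2 in Gdf10/Dkk2 against Nts/Igfbp5 cells (0.44 and 0.87). Values that were not called changed sign. These were Ackr2 between nodes in high endothelial-like cells (hashtag ratio 0.45), Ackr3 between genotypes in capillary-like cells (resolution 0.5 0.064, resolution 2 0.0092) and in arterial-like cells (block -0.17, DESeq2 -0.071, 5% mitochondrial -0.17, resolution 2 -0.062), and Ackr3 between nodes in arterial-like cells (chemokine genes left out -0.026). Ackr4 changed sign between nodes in lymphatic-like cells (WT alone -0.34) and between genotypes in Marco-type cells (resolution 0.5 0.37), Ackr1 in high endothelial-like against venous-like cells (no filter 0.29), and Ackr3 in arterial-like against capillary-like cells (hashtag ratio -0.12, 5% mitochondrial -0.33, resolution 0.5 -0.16, chemokine genes left out -0.47). The cause was not tested.

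Leaving out each library gave -2.82 to 3.87 for Ackr2 between genotypes and -3.35 to -3.11 between nodes in high endothelial-like cells, where single pools were at 0. It gave -0.91 to 0.12 for Ackr3 between genotypes in arterial-like cells, -0.88 to -0.37 for Ackr4 between genotypes in lymphatic-like cells, and 3.89 to 5.51 for Ackr4 between nodes in Marco-type cells. Between subsets it gave -0.090 to 0.055 for Ackr1 in high endothelial-like against venous-like and -0.35 to 0.72 for Ackr3 in arterial-like against capillary-like cells. For Gdf10/Dkk2 against Nts/Igfbp5 cells it gave 0.44 to 0.76 for Ackr4 and 0.87 to 2.11 for Ackr2, and for Ptx3/Mrc1 against Gdf10/Dkk2 cells 0.58 to 0.61 for Ackr2.

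Genes called by edgeR, summed over 4 classes, moved from 0 between genotypes to 110 with the library block, 87 without the filter and 14 with DESeq2. Between nodes they moved from 688 to 1769 with the block, 1233 without the filter, 117 in WT alone, 1149 at 5% mitochondrial and 272 with thinned sums. For the difference of effects they moved from 4 to 31 with the block, 47 without the filter, 2 with the hashtag ratio and 2 with thinned sums. High endothelial-like against venous-like cells moved from 639 to 1272 without the filter, 56 with thinned sums and 352 to 422 without a library. Venous-like against capillary-like cells moved from 622 to 67 with thinned sums and 320 to 458 without a library. Arterial-like against capillary-like cells moved from 1155 to 768 at 5% mitochondrial, 747 without chemokine genes, 290 with thinned sums and 634 to 834 without a library. Lymphatic-like against capillary-like cells moved from 5453 to 3610 with the hashtag ratio, 2983 with thinned sums and 3219 to 5229 without a library. Without a library the added contrasts called 365 to 1377 genes for Gdf10/Dkk2 against Nts/Igfbp5 (from 1418), 685 to 1150 for Ptx3/Mrc1 against Gdf10/Dkk2 (from 1520) and 1893 to 3052 for Gdf10/Dkk2 against floor-type cells (from 3290), and with thinned sums 400, 354 and 694.

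Thinning cells to 2000 UMIs lowered the shares with a UMI to 39.5% and 39.8% for Ackr1 in high endothelial-like and venous-like cells, 27.3% for Ackr2 in Ptx3/Mrc1, 30.7%, 25.2% and 7.73% for Ackr3 in Nts/Igfbp5, Gdf10/Dkk2 and capillary-like cells, and 76.7% and 54.1% for Ackr4 in Gdf10/Dkk2 and Nts/Igfbp5 cells. Venous-like cells were too few in peripheral pools for a fit over all 8 pools, and at resolution 0.5 no venous class was found, so those alternatives were not run.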
